A study of Caenorhabditis elegans with 12 samples.

Results

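Loss of the p38 MAP kinase kinase SEK-1 under full feeding was measured in 6 of the 12 RNA-seq libraries of the series: 3 of sek-1(km4) mutants and 3 of the wild-type strain N2, all fed ad libitum (AL). They are the count columns labelled sek-1 AL and N2 AL, and the labels call them biological replicates 1 to 3 of each strain. Every library holds whole Caenorhabditis elegans adults of day 6. Both strains grew on Escherichia coli OP50, were moved around the L4 stage to plates with antibiotics and 100 mg/L of FUdR, a DNA synthesis inhibitor that stops the production of progeny, and went on adult day 3 into liquid medium with growth-arrested OP50 at an optical density of 3. The other 6 libraries are the same strains under dietary restriction (DR), at an optical density of 0.1. FUdR, antibiotics and arrested bacteria were thus shared by mutant and wild type. The mutant is 1 strain with 1 deletion allele, km4, which every tissue of the animal carries. Differences between the strains are therefore differences between these cultures, and in RNA of whole animals fewer cells of a type and less RNA per cell cannot be told apart.

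SEK-1 is the middle kinase of the innate immune p38 cascade of the worm. The adaptor TIR-1 and the MAPKKK NSY-1 act above it, and the p38 kinase PMK-1, with the transcription factor ATF-7 as a target, acts below it. In the intestine the cascade keeps a battery of secreted effectors expressed, among them C-type lectins, lysozymes and CUB-like proteins, and in the epidermis it drives antimicrobial peptide genes. Loss of the kinases is known for making animals sensitive to bacterial pathogens.

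The 3 mutant libraries held 19538479 to 27860858 counts and the 3 N2 libraries 13673987 to 31675540, of which ribosomal RNA took 35.9% to 36.45% in the mutant and 37.84% to 50.95% in N2. The shallowest library, N2 replicate 3 (N2_AL 3), stood apart from its group. Across genes, which are not independent replicates, its log2 CPM (counts scaled per library size and by TMM) correlated at 0.904 and 0.907 with the other N2 libraries, against 0.986 to 0.992 among the mutant libraries and 0.991 between the other N2 libraries. Libraries are written below as sek1_AL 1 to 3 and N2_AL 1 to 3. N2_AL 3 held more of short transcripts, with a median deviation of 1.02 (log2) among genes with 20 to 787 nt of exon and −0.84 among those with 2327 to 56044 nt. It held 32 genes at 10 or more times the level of every other library, against at most 1 such gene in any other library. Counts that moved by more than 1.5 times without it are therefore also given without it, as is a gene's printed log2 fold change where the fold moved by more than that. A count of 3, taken as the limit of detection, is 0.106 to 0.129 CPM in the mutant libraries and 0.104 to 0.279 CPM in N2.

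Reads of the sek-1 gene itself were counted in both strains, and the difference did not pass the test. It stood at 18.8, 16.39 and 17.4 CPM in sek-1(km4), against 22.8, 20.8 and 3.72 CPM in N2. N2_AL 3 lay far below the mutant libraries and the other N2 libraries above them. The log2 fold change of sek-1(km4) over N2, given here as everywhere below with its standard error (SE) and from 3 libraries a group, was 0.14 ± 0.44 (edgeR adjusted p = 0.868), or −0.32 without that library. A count over the whole gene (chromosome X, 7816734 to 7821036, WBcel235) can include reads from exons outside the deletion, so it checks neither the deletion nor the labels.

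Of 14611 genes tested, 1860 (12.7%) were higher and 690 (4.72%) lower in sek-1(km4), at an edgeR adjusted p under 0.05 over all tested genes. Of these, 1525 and 402 differed at least 2-fold. No overlap between the groups was seen for 1851 of the higher and 666 of the lower genes, where 21.9% and 13.8% of all tested genes had none in those directions. Without N2_AL 3, 3461 genes (23.3%) were higher and 1997 (13.5%) lower. Of the original calls, 1850 of 1860 and 629 of 690 were made again in the same direction. The excess of higher genes varied with the scaling, and in DESeq2 the test differs as well. Higher genes were 72.9% of the calls, but 62.96% with RLE normalisation (1722 higher, 1013 lower), 53.6% in DESeq2 (2110 and 1830) and 43.99% with an offset for exon length (2012 and 2562), which also moved the median log2 fold change of all tested genes from 0.02 to −0.12. A core of 1559 higher and 480 lower genes was called the same way in all of these fits, in the fit without N2_AL 3, in that without ribosomal RNA, and in limma with library weights. Values in brackets after a gene are its log2 fold change with the SE. Gene groups are described by counts, beside these background shares, and genes named beyond the largest changes and the best-ranked members of each list were chosen after their values had been seen.

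Of the 12 largest falls among genes averaging 5 CPM or more, 7 were in C-type lectin, lysozyme, CUB-like or other p38-dependent effector genes. Among the others was a pair of short genes close together on chromosome I. C54C8.12 had 2 reads in all mutant libraries against 948 in N2, a ratio of 0.00155 after scaling (95% counting interval 0.000187 to 0.00561), and the neuropeptide-like gene nlp-39 had 3 against 1076 (0.00205, 0.000421 to 0.006). The levels of C54C8.12 were 0.0353, 0.0385 and 0 CPM in sek-1(km4), against 8.73, 10.2 and 48.1 CPM in N2. For nlp-39 they were 0, 0.0769 and 0.0430 CPM in sek-1(km4), against 10.7, 10.8 and 53.9 CPM in N2. N2_AL 3 held most of the N2 reads of both genes, and leaving it out moved the log2 fold changes, fitted on these few mutant reads, from −9.48 to −8.27 and from −9.14 to −7.94. On chromosome IV, C08F11.12 had 0.247, 0.50 and 0.687 CPM in sek-1(km4), against 44.1, 46.5 and 304 CPM in N2. The gene Y45F10C.2 had 0.212, 0.654 and 0.988 CPM in sek-1(km4), against 41.1, 51.3 and 304 CPM in N2 and lies close by. Their log2 fold changes were −8.11 ± 0.87 and −7.75 ± 0.90. The groups were far apart for both genes, and N2_AL 3 was the highest library by a wide margin. Without it the values were −6.59 and −6.26. The cation-transporting ATPase gene catp-3 had 2.01, 2.0 and 0.945 CPM in sek-1(km4), against 113, 106 and 24.1 CPM in N2 (−5.603 ± 0.68, edgeR adjusted p = 0.00022). Here N2_AL 3 was the lowest of the N2 libraries and still far above every mutant library.

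Of the 12 largest rises, 7 were in collagen, cuticlin and lipocalin-related genes, which build the cuticle and the apical matrix. The cuticlin gene cut-2 had 38.5, 33.7 and 28.04 CPM in sek-1(km4), against 0.313, 0.286 and 0.557 CPM in N2 (6.51 ± 0.31, edgeR adjusted p = 9.39e-07). The lipocalin-related gene lpr-4 had 1201 reads in the mutant libraries against 5 in N2, a scaled ratio of 176 (95% counting interval 75.4 to 544). The collagen gene col-144 had 14.5, 17.5 and 17.8 CPM in sek-1(km4), against 0.139, 0.286 and 0.557 CPM in N2 (5.86 ± 0.37). All N2 libraries were under 1 CPM for these genes, and no mutant library was. The other genes of this rank were ZK180.5 (5.96 ± 0.41), lpr-5 (5.75 ± 0.46), T19C3.3 (5.51 ± 0.41), the collagen gene col-10 (5.404 ± 0.45), the cuticlin gene cut-5 (5.39 ± 0.32), the lipase-related gene lips-11 (5.07 ± 0.65), F41F3.3 (5.05 ± 0.40, 5.79 without N2_AL 3), the furrow collagen gene dpy-7 (4.89 ± 0.29) and H42K12.3 (4.82 ± 0.34).

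**Figure D1:**
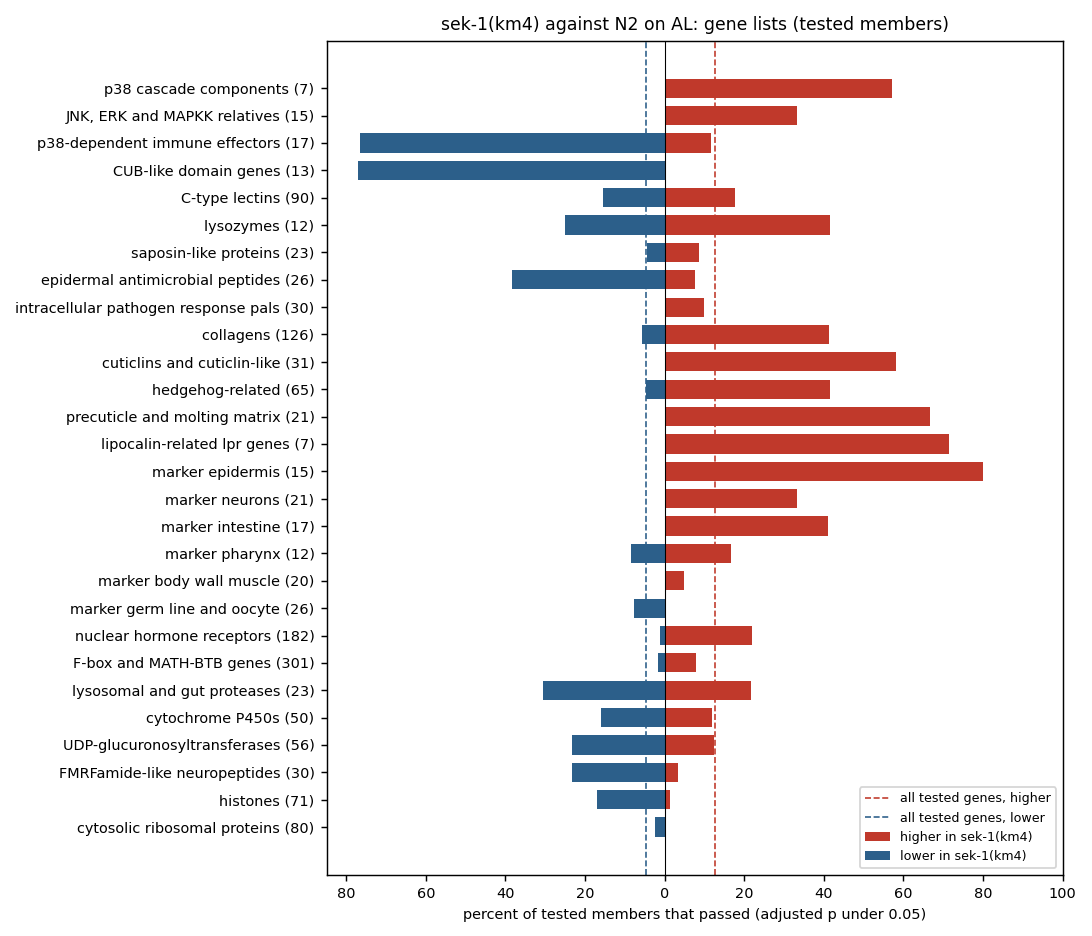
Percent of tested members of 28 gene lists that passed the edgeR test, higher in sek-1(km4) to the right (red) and lower to the left (blue), with the number of tested members in brackets. Dashed lines mark the shares over all tested genes, 12.7% higher and 4.72% lower; effector and CUB-like lists extend to the left, and epidermis, precuticle, cuticlin and collagen lists to the right.

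Around SEK-1, genes of the cascade were expressed at higher levels in the mutant or did not pass. Of 7 tested components other than sek-1, 4 rose (57.1%, beside 12.7% of all tested genes) and 0 fell. Their median log2 fold change was 0.71, against 0.02 over all tested genes. The adaptor gene tir-1 had 135, 137 and 169 CPM in sek-1(km4), against 54.3, 47.2 and 24.6 CPM in N2 (1.80 ± 0.26, edgeR adjusted p = 0.000674). All mutant libraries exceeded all N2 libraries. N2_AL 3 was the lowest, and without it the value was 1.53. The 3 p38 kinase genes lie side by side on chromosome IV, and all of them rose. Thus 3 of the 4 rises came from 1 stretch of the genome and need not be independent. The kinase gene pmk-3 had 21.8, 21.4 and 24.8 CPM in sek-1(km4), against 9.74, 9.26 and 4.64 CPM in N2 (1.51 ± 0.25). For pmk-2 the values were 8.36, 8.04 and 11.5 CPM in sek-1(km4), against 4.87, 4.34 and 3.90 CPM in N2 (1.08 ± 0.19), and for pmk-1 they were 17, 18.3 and 22.8 CPM in sek-1(km4), against 10.9, 13.6 and 11.1 CPM in N2 (0.71 ± 0.17, edgeR adjusted p = 0.0129). In none of the 3 did the groups overlap. The MAPKKK gene nsy-1 (0.43 ± 0.38), the phosphatase gene vhp-1 (0.60 ± 0.39) and atf-7 (0.06 ± 0.23) did not pass. The counts were the same without N2_AL 3, where atf-7 stood at −0.20.

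Among 15 related MAP kinase genes of the JNK and ERK branches, 5 rose and 0 fell. They were jnk-1 (1.36 ± 0.29), the MAPKKK genes mlk-1 (1.26 ± 0.38) and dlk-1 (1.09 ± 0.24), the MAPKK gene sek-3 (1.09 ± 0.28) and the kinase gene kgb-1 (0.80 ± 0.18). This count was 2 without sek1_AL 2 or sek1_AL 3, and 3 without sek1_AL 1. Without N2_AL 3 it was 6 higher and 4 lower.

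Known p38-dependent immune effectors were mostly below wild type. Of 17 tested members, 13 fell and 2 rose, with a median log2 fold change of −4.45 (−3.97 without N2_AL 3, with 13 lower and 3 higher). The PMK-1-dependent pathogen response gene C17H12.8 had 0.0705, 0.192 and 0.0859 CPM in sek-1(km4), against 65.2, 67.7 and 46.9 CPM in N2 (−8.95 ± 0.40, edgeR adjusted p = 9.39e-07). The ShK-domain peptide gene sysm-1 had 0.247, 0.0769 and 0.0430 CPM in sek-1(km4), against 12.1, 13.3 and 30.1 CPM in N2 (−7.12 ± 0.65), and the CUB-like gene dod-24 had 0.106, 0.269 and 0.215 CPM in sek-1(km4), against 18.3, 19.6 and 23.8 CPM in N2 (−6.68 ± 0.51). For all of these the mutant libraries were within a few reads of the limit of detection, and the N2 libraries were not.

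Some other effectors kept a measurable level in the mutant. The lysozyme gene lys-2 had 1.66, 1.73 and 1.55 CPM in sek-1(km4), against 66.3, 70.9 and 126 CPM in N2 (−5.73 ± 0.35, edgeR adjusted p = 2.91e-06). The C-type lectin gene clec-85 had 3.81, 4.54 and 4.08 CPM in sek-1(km4), against 62.6, 66.9 and 143 CPM in N2 (−4.45 ± 0.40). In both, N2_AL 3 was the highest N2 library, and without it the values were −5.38 and −3.97. The lysozyme gene lys-1 (27.6, 28.6 and 22.3 CPM in sek-1(km4), against 67.9, 66.2 and 85.3 CPM in N2) and the lectin gene clec-66 (1.06, 0.808 and 0.773 CPM in sek-1(km4), against 4.42, 3.14 and 3.72 CPM in N2) were lower by less, at −1.48 ± 0.26 and −2.09 ± 0.26. Further genes were at or under the limit of detection in each mutant library. Among these, the infection response gene irg-5 had 8 reads in the mutant libraries against 180 in N2, a scaled ratio of 0.0326 (95% counting interval 0.0139 to 0.0657). For C17H12.6, next to C17H12.8, the reads were 3 and 175 (0.0126, 0.00257 to 0.0374). For clec-67 (−3.37 ± 0.99) the groups overlapped, since N2_AL 3 was at 0.279 CPM and the other N2 libraries at 4.91 and 3.49 CPM.

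Members of the same list that went the other way were lectin genes. The gene clec-60 had 26.6, 18.1 and 21.6 CPM in sek-1(km4), against 0.661, 0.972 and 1.86 CPM in N2 (4.34 ± 0.51, edgeR adjusted p = 0.000168), and clec-7 had 1.76, 2.69 and 1.93 CPM in sek-1(km4), against 0.626, 0.457 and 1.02 CPM in N2 (1.65 ± 0.40). No library of one group reached into the other. The lectin gene clec-71 (0.52 ± 0.68) and the saposin-like gene spp-18 (1.76 ± 0.62, 2.99 without N2_AL 3) did not pass, although spp-18 did without N2_AL 3.

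**Figure D2:**
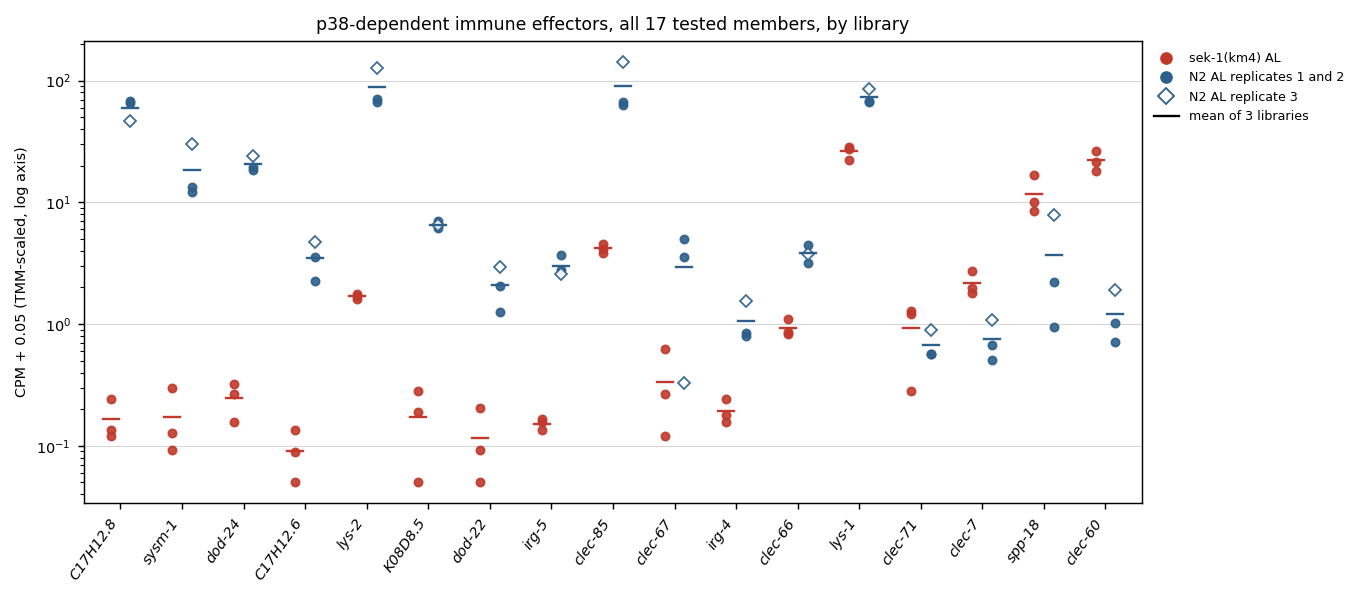
CPM plus 0.05 (log axis) of all 17 tested p38-dependent effector genes in each AL library, sek-1(km4) in red left of N2 in blue, with N2_AL 3 as an open diamond and bars at the mean of 3 libraries, ordered by log2 fold change. From C17H12.8 to lys-1 the mutant points lie below the N2 points except at clec-67, where N2_AL 3 falls among the mutant libraries; clec-7 and clec-60 lie above.

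CUB-like domain genes, secreted proteins induced by infection, moved in 1 direction. Of 13 tested, 10 fell and 0 rose (10 and 0 also without N2_AL 3). Their median log2 fold change was −4.66, or −3.23 with the genes at the limit of detection set to it. Many of them lie together on chromosome IV, between K08D8.5 (IV, 12910647 to 12912129) and dod-17 (IV, 12976303 to 12978343). C32H11.4 (−4.75 ± 0.64), dod-24, F55G11.8 (−4.66 ± 0.53), dod-22 (−4.83 ± 0.75), F55G11.2, F55G11.4 (−2.13 ± 0.38) and dod-17 (−5.34 ± 0.94, −4.74 without N2_AL 3) were all lower there, with the effector K08D8.5 (−5.62 ± 0.62) beside them. For F55G11.2 there was 1 read in the mutant libraries against 48 in N2 (scaled ratio 0.0153, 95% counting interval 0.000379 to 0.0894). C32H11.3, in the same stretch, and the other 2 members did not pass. Of those that fell, the most abundant in the mutant was F55G11.4, at 8.29, 6.38 and 7.69 CPM in sek-1(km4), against 29.4, 35.96 and 32.9 CPM in N2. Outside that stretch, on chromosome V, cld-9 had 0.988, 1.19 and 1.03 CPM in sek-1(km4), against 9.12, 8.46 and 9.38 CPM in N2 (−3.06 ± 0.24). Related neighbours can share reads, which makes their single values uncertain.

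The C-type lectin family, carbohydrate-binding proteins with a large role in the gut response, was split. Of 90 tested, 16 rose (17.8%, beside 12.7% of all tested genes) and 14 fell (15.6%, beside 4.72%). The median log2 fold change was 0.18 (−0.01 without N2_AL 1). Without N2_AL 3, 28 of 95 rose (29.5%) and 16 fell (16.8%). Those shares were closer to the 23.3% and 13.5% of all tested genes in that fit. The gene clec-47 had 0.141, 0.115 and 0.301 CPM in sek-1(km4), against 8.60, 13.2 and 34.6 CPM in N2 (−6.64 ± 0.61, −5.87 without N2_AL 3, edgeR adjusted p = 3.51e-05). A pair of annotated genes named clec-209 fell by 6.41 and 6.35 on the log2 scale, but copies under 1 name can share reads, and their single values are uncertain. Among lectins of higher level, clec-65 had 9.98, 9.35 and 6.40 CPM in sek-1(km4), against 44.8, 42.9 and 35.7 CPM in N2 (−2.26 ± 0.22). On the other side, clec-180 had 8.85, 9.42 and 6.57 CPM in sek-1(km4), against 0.452, 0.286 and 1.39 CPM in N2 (3.70 ± 0.47, 4.41 without N2_AL 3), clec-10 had 7.30, 7.50 and 6.18 CPM in sek-1(km4), against 0.696, 0.915 and 1.21 CPM in N2 (2.94 ± 0.28) and clec-5 had 13.8, 13.6 and 12.2 CPM in sek-1(km4), against 3.13, 2.57 and 2.88 CPM in N2 (2.20 ± 0.21). The groups did not overlap for any of the 5 genes given here with their values.

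Lysozymes, which digest bacterial cell walls, were split in the same way. Of 12 tested, 5 rose and 3 fell. Those that fell were lys-2, lys-1 and lys-8, the last at 23, 19.6 and 20.1 CPM in sek-1(km4), against 108, 95.2 and 167 CPM in N2 (−2.56 ± 0.29, edgeR adjusted p = 0.00015). Those that rose were the invertebrate-type genes ilys-2 (3.64 ± 0.71, 5.13 without N2_AL 3) and ilys-3 (2.61 ± 0.72), with lys-3 (2.61 ± 0.55, 3.59 without N2_AL 3), lys-4 (1.75 ± 0.49, 2.52 without N2_AL 3) and lys-5 (2.94 ± 0.69, 4.09 without N2_AL 3). For ilys-3 the levels were 11.1, 11.5 and 22.8 CPM in sek-1(km4), against 0.974, 0.629 and 6.503 CPM in N2. In all of the rising genes N2_AL 3 was the highest N2 library, and without it 8 of 13 lysozymes were higher and the value for ilys-3 was 4.17. Without N2_AL 1, N2_AL 2 or sek1_AL 3 the count of rises was 3.

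Epidermal antimicrobial peptide genes fell more often than they rose in the fit of all libraries, but not without N2_AL 3 or on DR. Of 26 tested, 10 fell and 2 rose (10 and 11 without N2_AL 3), with a median log2 fold change of −0.66 that stood at 0.02 without that library. On DR 8 of them fell and 9 rose, with a median of 0.86. The caenacin gene cnc-4 had 1.34, 0.769 and 0.859 CPM in sek-1(km4), against 15.4, 11.2 and 32.2 CPM in N2 (−4.29 ± 0.41, edgeR adjusted p = 4.33e-05). The peptide gene nlp-33 had 1.02, 1.15 and 0.988 CPM in sek-1(km4), against 8.87, 6.23 and 17.7 CPM in N2 (−3.36 ± 0.36), and its relative nlp-31 was lower too (−2.38 ± 0.54, −1.42 without N2_AL 3). Of the fungus-induced peptide genes, fipr-22 had 0.388, 0.615 and 0.558 CPM in sek-1(km4), against 22.8, 14.01 and 23.9 CPM in N2 (−5.27 ± 0.35) and its neighbour fipr-23 fell by 4.72 on the log2 scale. Related copies can share reads, which makes their single values uncertain. The genes that rose were fipr-1 (3.96 ± 0.55, 4.92 without N2_AL 3) and fipr-2 (2.39 ± 0.64).

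A list of genes named for immune responses other than the p38 cascade was mixed. Whether each member acts apart from p38 was not tested. Of 17 tested genes, 6 rose (35.3%) and 3 fell (17.65%), beside 12.7% and 4.72% of all tested genes. In the fit without N2_AL 3 they were 8 (47.1%) and 2 (11.8%), beside 23.3% and 13.5%. The counts were 2 and 0 without sek1_AL 2 or sek1_AL 3, 5 and 0 without sek1_AL 1, 4 and 1 without N2_AL 1, and 2 and 1 without N2_AL 2. The genes elt-2 (1.54 ± 0.34), the GATA factor of the intestine, hlh-30 (0.88 ± 0.27), the TFEB orthologue, bar-1 (0.89 ± 0.26), sta-2 (0.96 ± 0.27), fbxa-158 and ilys-3 rose. The receptor genes fshr-1 (−1.03 ± 0.28) and nhr-86 (−0.64 ± 0.16) fell. The TGF-beta ligand gene dbl-1 was called lower (−4.37 ± 1.38), but 1 library made that call. Its levels were 4.62, 3.58 and 4.94 CPM in sek-1(km4), against 3.31, 2.34 and 268 CPM in N2, and without N2_AL 3 the log2 fold change was 0.61. Of 30 pals genes, the family of the intracellular pathogen response, 3 rose and 0 fell, among them pals-27 (2.12 ± 0.37). Their share higher, 10%, was below the 12.7% of all tested genes. Without N2_AL 3, 12 of 31 rose (38.7%, beside 23.3%). Of 23 saposin-like genes 2 rose (8.70%) and 1 fell (4.35%), shares also below those of all tested genes. The counts were 14 (60.9%) and 0 without N2_AL 3, with 0 rises without N2_AL 1, N2_AL 2 or sek1_AL 3.

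In the cuticle, more collagen genes rose in the mutant than fell, while their summed level overlapped between the groups. That sum was 3115 to 5326 CPM in the mutant libraries and 3015 to 4350 CPM in N2. Of 126 tested, 52 rose and 7 fell, 41.3% and 5.56% of them beside 12.7% and 4.72% of all tested genes. The median log2 fold change was 1.18, or 0.90 with the genes at the limit of detection set to it. It was 1.59 without N2_AL 3 (70 and 7 of 127) and 0.61 without N2_AL 2, and leaving out sek1_AL 2 or sek1_AL 3 took the count of falls to 4. The 6 furrow collagens, which form the annular furrows of the cuticle, all rose. The levels for dpy-7 were 19.3, 18.4 and 19.2 CPM in sek-1(km4), against 0.766, 0.457 and 0.650 CPM in N2 (edgeR adjusted p = 2.82e-06). For dpy-2 they were 19.3, 18.7 and 18.6 CPM in sek-1(km4), against 1.496, 0.743 and 0.465 CPM in N2 (4.27 ± 0.38), and for dpy-10 37.5, 38.7 and 36.4 CPM in sek-1(km4), against 7.52, 6.80 and 4.83 CPM in N2 (2.54 ± 0.23). Every mutant library lay above every N2 library. The others were dpy-3 (3.64 ± 0.30), dpy-8 (2.46 ± 0.55, 3.50 without N2_AL 3) and dpy-9 (1.58 ± 0.43, 2.33 without N2_AL 3).

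Collagens outside the furrow group followed, among them sqt-3, at 107, 94.3 and 83.6 CPM in sek-1(km4), against 31.5, 18.1 and 8.73 CPM in N2 (2.28 ± 0.37), dpy-17 (1.52 ± 0.21), rol-6 (2.97 ± 0.91, 5.84 without N2_AL 3) and dpy-13 (2.71 ± 0.50). The adult collagen gene col-19 had 125, 107 and 73.2 CPM in sek-1(km4), against 37.2, 30.5 and 43.9 CPM in N2 (1.45 ± 0.40, edgeR adjusted p = 0.0276). The 7 collagens that fell were col-183 (−3.78 ± 0.45), col-50 (−3.75 ± 0.67), col-116, col-81, col-38, col-85 and col-118.

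Cuticlin and cuticlin-like genes had no member that fell. Of 31 tested, 18 rose (24 without N2_AL 3), with a median log2 fold change of 1.60. Besides cut-2, cut-5 stood at 8.15, 10.3 and 11.04 CPM in sek-1(km4), against 0.209, 0.286 and 0.186 CPM in N2 (edgeR adjusted p = 2.82e-06). In the precuticle, noah-1 had 132, 134 and 119.1 CPM in sek-1(km4), against 37.4, 28.2 and 5.85 CPM in N2 (2.42 ± 0.50), and noah-2 had 114, 106 and 98.3 CPM in sek-1(km4), against 23.6, 16.46 and 8.36 CPM in N2 (2.71 ± 0.33). For noah-1 and noah-2 N2_AL 3 was the lowest library, and the values without it were 1.96 and 2.40.

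Hedgehog-related and patched-related genes, which in the worm act mainly in the epidermis and in molting, also rose more often than they fell. Their summed level overlapped between the groups, at 822 to 1103 CPM in the mutant libraries and 828 to 1046 CPM in N2. Of 65 tested, 27 rose and 3 fell, with a median log2 fold change of 1.04 (38 and 3 of 66 without N2_AL 3, and 1 fall without any 1 of the mutant libraries). The patched-related gene ptr-4 had 27.1, 29.9 and 26.1 CPM in sek-1(km4), against 2.26, 1.66 and 0.650 CPM in N2 (4.104 ± 0.40, edgeR adjusted p = 4.64e-05), and ptr-10 had 7.23, 10.6 and 11.9 CPM in sek-1(km4), against 1.04, 0.800 and 0.557 CPM in N2 (3.56 ± 0.27). The warthog gene wrt-10 had 29.3, 28.2 and 33.8 CPM in sek-1(km4), against 10.7, 8.403 and 11.3 CPM in N2 (1.59 ± 0.17), and wrt-9 rose with a log2 fold change of 4.06 ± 0.38. The groups did not overlap for any of these. The call that grd-6 was lower (−7.195 ± 2.18) rested on 1 library. Its levels were 0.811, 0.654 and 0.859 CPM in sek-1(km4), against 0.104, 0.4001 and 343 CPM in N2, and the value without that library was 1.76.

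Markers of the epidermis, the tissue that makes the cuticle, rose in the mutant. Of 15 epidermis markers, 12 rose and 0 fell, with a median log2 fold change of 2.32 (12 and 2.34 without N2_AL 3). Their summed level was 314.5 to 365 CPM in the mutant libraries and 111 to 202 CPM in N2. Some of these markers are also collagen or hedgehog-related genes of the lists above. The GATA factor gene elt-3 had 7.51, 8.5 and 9.53 CPM in sek-1(km4), against 2.23, 2.06 and 1.49 CPM in N2 (2.12 ± 0.23, edgeR adjusted p = 9.71e-05), the nuclear receptor gene nhr-25 had 15.1, 14.8 and 17.9 CPM in sek-1(km4), against 3.97, 3.54 and 1.86 CPM in N2 (2.32 ± 0.25), and the cell fusion gene eff-1 had 7.196, 8.23 and 7.21 CPM in sek-1(km4), against 0.800, 0.4001 and 0.465 CPM in N2 (3.68 ± 0.32). The groups did not overlap. The early epidermal GATA factor gene elt-1 rose with a log2 fold change of 1.24 ± 0.30.

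A list of 21 tested precuticle and molting genes, put together after values had been seen, had 14 rises and 0 falls with a median of 1.76 (15 and 1 with a median of 1.41 without N2_AL 3). The Kunitz-type inhibitor gene mlt-11 had 192, 175 and 128 CPM in sek-1(km4), against 29.7, 23.1 and 9.29 CPM in N2 (2.99 ± 0.42, edgeR adjusted p = 0.000575). The ACE-like gene acn-1 had 31.1, 33.9 and 32.1 CPM in sek-1(km4), against 4.28, 3.09 and 5.02 CPM in N2 (2.98 ± 0.27), and the apical matrix genes let-4 (2.91 ± 0.32), dex-1 (2.50 ± 0.33) and let-653 (2.01 ± 0.30) rose too. Of 7 lipocalin-related genes, whose products line narrow tubes and the epidermis, 5 rose and 0 fell (6 and 0 without N2_AL 3), in a list chosen in the same way. The neighbours lpr-3, lpr-6, lpr-5 and lpr-4 lie in a row on the X chromosome. For lpr-3 the levels were 74.3, 70 and 59.9 CPM in sek-1(km4), against 11, 8.29 and 3.72 CPM in N2 (3.13 ± 0.38), for lpr-6 16.9, 19.4 and 19.7 CPM in sek-1(km4), against 0.870, 0.629 and 0.929 CPM in N2 (4.53 ± 0.22) and for lpr-5 29.1, 33.7 and 24.9 CPM in sek-1(km4), against 0.418, 0.343 and 1.02 CPM in N2. No mutant library came near the N2 libraries in these genes, although N2_AL 3 was the lowest N2 library for lpr-3 and the highest for lpr-6 and lpr-5.

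Many of these genes are known from the embryonic and larval cuticle, so regulators of embryonic cell fate are given beside them. Of 24 tested, 4 rose (16.7%) and 0 fell, a share higher near the 12.7% of all tested genes. Without N2_AL 3, 8 rose (32%) and 1 fell (4%), beside 23.3% and 13.5%. Their summed level was 159 to 173 CPM in the mutant libraries and 102 to 156 CPM in N2. The members that rose were ceh-13 (1.16 ± 0.22), elt-6 (1.67 ± 0.23), ceh-27 (1.92 ± 0.43) and elt-1. Their part in the rise of the cuticle genes was not tested.

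**Figure D3:**
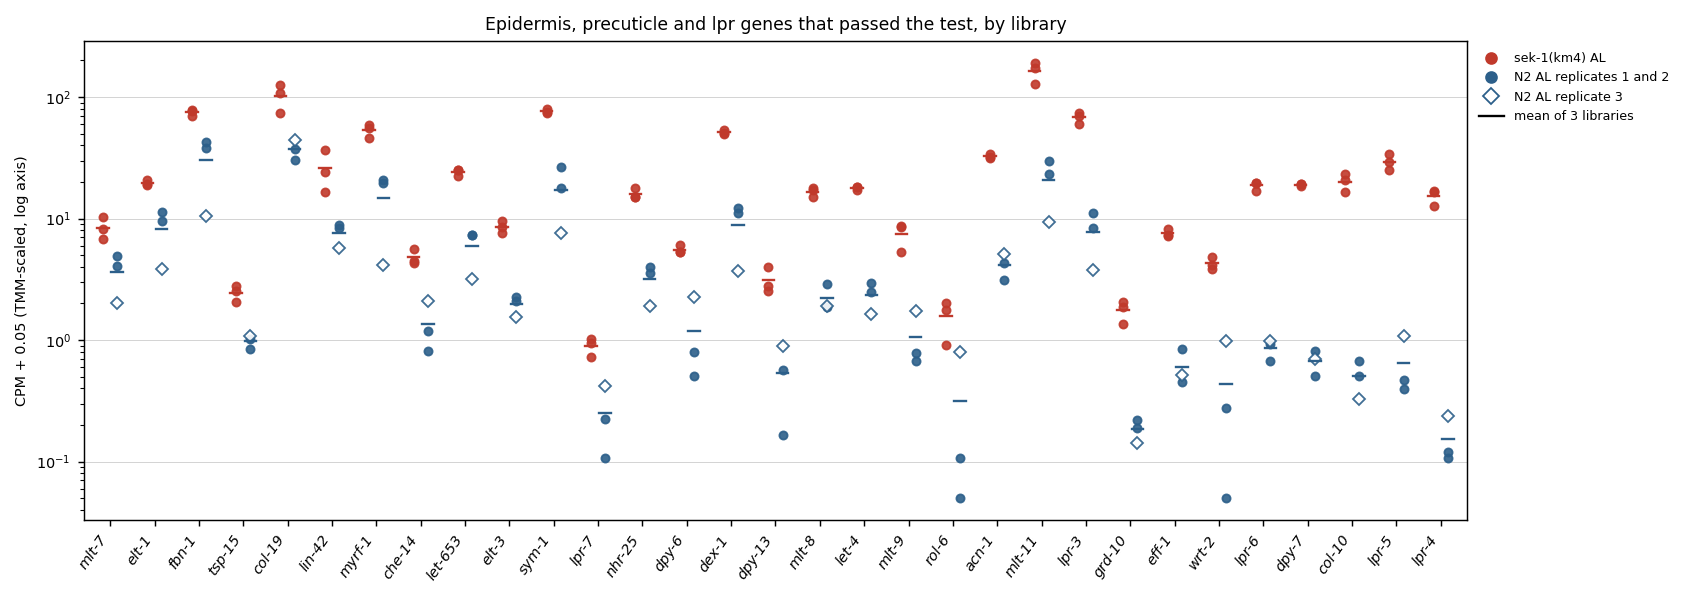
CPM plus 0.05 (log axis) of the 31 epidermis, precuticle and lipocalin-related genes that passed, in each AL library, sek-1(km4) in red left of N2 in blue, with N2_AL 3 as an open diamond and bars at the mean of 3 libraries. In each gene all mutant points lie above all N2 points, and lpr-4, lpr-5, col-10 and dpy-7 have the widest gaps.

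Markers of other tissues were mixed. Of 21 neuron markers 7 rose and 0 fell (13 and 0 without N2_AL 3, 3 without sek1_AL 3), with a median of 0.67. Most of these act in synaptic vesicle release or transport. The release factor gene unc-13 had 12.56, 15.8 and 15.98 CPM in sek-1(km4), against 5.46, 4.34 and 2.04 CPM in N2 (1.87 ± 0.38), and the synaptic GTPase gene rab-3 had 2.86, 4.04 and 6.27 CPM in sek-1(km4), against 1.18, 1.37 and 1.58 CPM in N2 (1.69 ± 0.30, edgeR adjusted p = 0.00237). The summed level of the list was 303 to 326 CPM in the mutant libraries and 238 to 297 CPM in N2. Of 30 tested FMRFamide-like neuropeptide genes 7 fell and 1 rose (6 and 3 without N2_AL 3, 3 lower without sek1_AL 1 or sek1_AL 2, and 4 without sek1_AL 3), with a median of −0.26. On DR 3 of them fell and 4 rose, with a median of 0.23. The gene flp-1 had 2.82, 3.35 and 2.58 CPM in sek-1(km4), against 9.60, 7.66 and 12.4 CPM in N2 (−1.76 ± 0.24), while flp-25 had 4.23, 4.88 and 7.82 CPM in sek-1(km4), against 1.01, 0.858 and 1.67 CPM in N2 (2.30 ± 0.36).

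Of 17 intestine markers, 7 rose and 0 fell (7 and 1 without N2_AL 3, 3 and 0 without any 1 of the mutant libraries), among them elt-2, the intermediate filament gene ifb-2 (1.59 ± 0.40) and the actin gene act-5 (1.11 ± 0.31). Their summed level overlapped between the groups, at 4566 to 7679 CPM in the mutant and 2930 to 7169 CPM in N2. Body wall muscle had 1 rise in 20, in unc-52 (2.42 ± 0.47), the perlecan of the basement membrane, but 5 rises without N2_AL 3, 3 without N2_AL 1 and 2 without sek1_AL 1. Pharynx markers had 2 rises and 1 fall in 12 (3 and 0 without N2_AL 3). Coelomocyte markers had 1 rise in 5 (1 rise and 1 fall without N2_AL 3), and sperm genes 1 rise in 4 tested of 51. The rises in both were 0 without any 1 of the mutant libraries.

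Germ line and oocyte genes tended the other way. Of 26 tested, 2 fell (7.69%, beside 4.72% of all tested genes) and 0 rose. Without N2_AL 3, 18 fell (69.2%, beside 13.5%) and the median was −0.57 in place of −0.37. Without any other AL library 1 or 0 fell. On DR 22 of them fell and 0 rose, with a median of −0.996, where 14.6% of all tested genes were lower. The germ granule gene pgl-3 had 160.3, 143 and 98.3 CPM in sek-1(km4), against 224, 214 and 256 CPM in N2 (−0.79 ± 0.20, edgeR adjusted p = 0.0204), and the meiotic chromosome axis gene him-3 was lower as well (−0.47 ± 0.15). The summed level of the list was 9529 to 14360 CPM in the mutant libraries and 9664 to 19125 CPM in N2. Its lowest value in each group was in replicate 3.

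Nuclear hormone receptor genes were higher far more often than lower. Of 182 tested, 40 rose (21.98%) and 2 fell, with a median of 0.49 (62 and 5 of 186 without N2_AL 3). The gene nhr-3 had 20.4, 22.04 and 27.7 CPM in sek-1(km4), against 4.45, 1.83 and 2.42 CPM in N2 (2.98 ± 0.34, edgeR adjusted p = 0.000164), and nhr-270 had 3.81, 3.96 and 6.70 CPM in sek-1(km4), against 0.209, 0.343 and 0.465 CPM in N2 (3.92 ± 0.37). Of 301 F-box and MATH-BTB genes, 24 rose (7.97%) and 5 fell (1.66%), both shares below those of all tested genes. Without N2_AL 3 the counts were 88 and 6 of 308, so that the share higher, 28.57%, was above that of all genes in that fit (23.3%), and the share lower, 1.95%, below it (13.5%). The count of rises was 11 without N2_AL 1, N2_AL 2 or sek1_AL 3, with 10, 7 and 2 lower, and the falls were 2 and 3 without sek1_AL 1 and sek1_AL 2.

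Digestive proteases of the gut changed in opposite directions within 1 family. Of 23 tested, 5 rose and 7 fell (also 5 and 7 without N2_AL 3). The cathepsin B-like gene cpr-1 had 622, 553 and 504 CPM in sek-1(km4), against 64.8, 76.0 and 153 CPM in N2 (2.52 ± 0.51), cpr-5 had 83.1, 87 and 78.3 CPM in sek-1(km4), against 6.51, 6.69 and 8.64 CPM in N2 (3.52 ± 0.43, edgeR adjusted p = 0.000243), and cpr-4 had 118, 97.7 and 95.4 CPM in sek-1(km4), against 19.7, 19.8 and 19.5 CPM in N2 (2.40 ± 0.44). The groups did not overlap. The cathepsin B-like gene cpr-2 went the other way, with 1.94, 1.54 and 2.92 CPM in sek-1(km4), against 8.32, 10.2 and 12.26 CPM in N2 (−2.26 ± 0.37). Among aspartyl proteases, asp-5 had 35.1, 34.6 and 33.8 CPM in sek-1(km4), against 202, 179.6 and 197 CPM in N2 (−2.48 ± 0.28, edgeR adjusted p = 0.000128), and asp-6 had 138, 124 and 146 CPM in sek-1(km4), against 358, 316 and 259.7 CPM in N2 (−1.19 ± 0.29). Their neighbour asp-12 (−1.70 ± 0.27) and asp-14 (−2.33 ± 0.33) fell too. In the same family asp-17 had 52.9, 47.3 and 48.9 CPM in sek-1(km4), against 4.21, 5.09 and 4.46 CPM in N2 (3.44 ± 0.36).

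**Figure D4:**
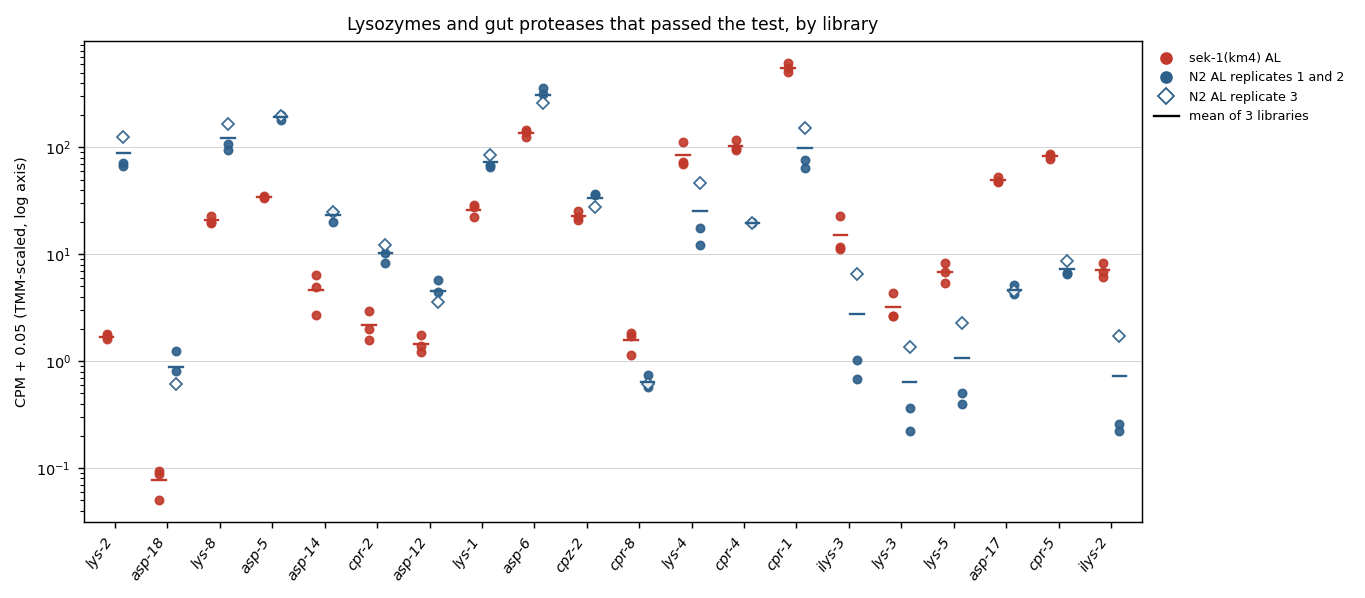
CPM plus 0.05 (log axis) of the lysozyme and gut protease genes that passed, in each AL library, sek-1(km4) in red left of N2 in blue, with N2_AL 3 as an open diamond and bars at the mean of 3 libraries, ordered by log2 fold change. Genes of each family stand on both sides: lys-2, asp-5 and cpr-2 are lower in the mutant, and ilys-2, asp-17 and cpr-5 higher.

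Detoxification genes were split within and between families. Of 56 tested UDP-glucuronosyltransferase genes, whose products attach sugars to lipophilic compounds, 13 fell (23.2%) and 7 rose (18 and 12 of 57 without N2_AL 3). The gene ugt-63 had 0.952, 0.846 and 0.730 CPM in sek-1(km4), against 7.17, 9.38 and 3.53 CPM in N2 (−2.99 ± 0.36, edgeR adjusted p = 0.000222), and ugt-25 had 2.96, 3.62 and 3.52 CPM in sek-1(km4), against 16.7, 16.9 and 11.2 CPM in N2 (−2.15 ± 0.29). Of 50 cytochrome P450 genes, 8 fell and 6 rose (14 and 11 of 51 without N2_AL 3, with 4 or 5 lower without N2_AL 2, sek1_AL 1 or sek1_AL 3). The gene cyp-34A9 had 0.882, 1.27 and 1.16 CPM in sek-1(km4), against 5.602, 6.57 and 4.83 CPM in N2 (−2.36 ± 0.29), while cyp-42A1 had 6.88, 6.85 and 7.04 CPM in sek-1(km4), against 1.36, 1.37 and 1.02 CPM in N2 (2.44 ± 0.30). Of 33 glutathione S-transferase genes 3 rose and 1 fell (13 and 1 without N2_AL 3, and 1 rise without N2_AL 1, N2_AL 2, sek1_AL 2 or sek1_AL 3). Of 18 SKN-1 target and phase II genes 2 fell and 0 rose (3 and 3 without N2_AL 3), and 0 fell without sek1_AL 1 or sek1_AL 2.

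DAF-16, the FOXO factor of insulin signalling, has targets in both of its classes that changed here. Of 19 tested genes raised by low insulin signalling, 3 fell and 1 rose (4 and 4 without N2_AL 3, 2 and 2 without sek1_AL 2). The gene dod-6 had 8.04, 8.85 and 8.89 CPM in sek-1(km4), against 64.3, 55.9 and 53.7 CPM in N2 (−2.75 ± 0.16, edgeR adjusted p = 2.67e-06), scl-20 had 1.91, 2.27 and 1.203 CPM in sek-1(km4), against 25.4, 19.4 and 24.5 CPM in N2 (−3.68 ± 0.29), and the superoxide dismutase gene sod-3 had 3.60, 4.04 and 3.39 CPM in sek-1(km4), against 0.661, 1.09 and 1.39 CPM in N2 (1.86 ± 0.35). The small heat shock gene sip-1 was lower too (−1.25 ± 0.34). Of 10 genes lowered by low insulin signalling 4 fell and 2 rose (4 and 3 without N2_AL 3, and 0 rose without N2_AL 1 or N2_AL 2), and 3 of those that fell are the CUB-like genes dod-24, dod-17 and dod-22 given above.

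In transport and metabolism, single members had large changes. Of 11 aquaporin genes, channels for water and glycerol, 3 rose and 0 fell (6 and 0 without N2_AL 3). Among them, aqp-8 had 17.2, 18.4 and 16.45 CPM in sek-1(km4), against 1.43, 0.972 and 1.49 CPM in N2 (3.74 ± 0.21, edgeR adjusted p = 2.67e-06), aqp-2 had 121, 119.2 and 154 CPM in sek-1(km4), against 41.3, 41.7 and 42.2 CPM in N2 (1.65 ± 0.15), and aqp-1 rose with a log2 fold change of 1.26 ± 0.21. The lipid-binding protein gene far-3 had 17.8, 16.23 and 20.6 CPM in sek-1(km4), against 160.3, 159 and 329 CPM in N2 (−3.57 ± 0.37), in a list of 16 lipid-binding proteins with 1 fall and 3 rises (7 rises without N2_AL 3, and 1 without N2_AL 2 or sek1_AL 3). In the methionine cycle, the S-adenosylmethionine synthetase gene sams-1 had 31.6, 36.9 and 40.9 CPM in sek-1(km4), against 8.94, 11.03 and 3.90 CPM in N2 (2.18 ± 0.37), and the folate transporter gene folt-2 had 3.53, 4.27 and 3.13 CPM in sek-1(km4), against 18.3, 24.1 and 9.85 CPM in N2 (−2.26 ± 0.44). In each of these genes the groups did not overlap. The fatty acid synthase gene fasn-1 (1.45 ± 0.41) was the 1 gene of 18 in fatty acid synthesis that passed. Without N2_AL 3, 3 of them were higher, and without any 1 of the mutant libraries 0 were. Of 46 transthyretin-like genes 8 rose and 5 fell (21 and 5 without N2_AL 3, 4 and 8 without N2_AL 1, 3 and 8 without N2_AL 2, 4 and 5 without sek1_AL 3). Among those that fell, ttr-26 had 2.40, 3.31 and 3.26 CPM in sek-1(km4), against 22.4, 21.3 and 38.6 CPM in N2 (−3.19 ± 0.31).

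In further lists of up to 33 genes, at most 5 members passed in either direction. Some of their shares still exceeded those of all tested genes. Of 7 lysosomal lipases 2 were higher (28.57%) and 0 lower (3 and 0 without N2_AL 3), and of 28 short-chain dehydrogenases 5 were higher (17.86%) and 3 lower (10.71%), or 5 and 6 without it. Of 23 astacin metalloproteases 4 were higher (17.39%) and 1 lower (10 and 1 without N2_AL 3), and of 29 ABC transporters 4 were higher (13.79%) and 2 lower (6.90%), or 6 and 2 without it and 2 and 0 without sek1_AL 3. Insulin-like peptides had 1 higher and 2 lower (9.09%) of 22 (6 and 2 without N2_AL 3).

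In the fit of all libraries, lists of core metabolism and protein turnover had shares near or below those of all tested genes. Higher members numbered 1 of 22 for fatty acid beta-oxidation, 1 of 19 for glycolysis, 1 of 18 for the unfolded protein response and 3 of 26, with 1 lower, for autophagy. Lower members numbered 1 of 33 for the proteasome and 1 of 20 for the vacuolar ATPase (5%, beside 4.72% of all tested genes). The count was 0 in both directions among 6 vitellogenins, 15 genes of trehalose, glycogen and gluconeogenesis, 5 of the propionate shunt and 5 flavin-containing monooxygenases. Without N2_AL 3 more of these genes were lower, beside 13.5% of all tested genes in that fit. They numbered 9 in glycolysis (47.4%), 7 in the proteasome (21.2%) and 4 in the unfolded protein response (22.2%). Trehalose, glycogen and gluconeogenesis had 4 (26.7%) and the propionate shunt 2 (40%). These shares lay above that of all tested genes, and those of beta-oxidation (2, 9.09%) and the vacuolar ATPase (2, 10%) below it. In that fit 2 genes of the unfolded protein response, 1 of the vacuolar ATPase and 1 monooxygenase were higher, and the counts for autophagy and vitellogenins were the same. The single calls in beta-oxidation, the unfolded protein response, the vacuolar ATPase and the proteasome were not made without any 1 of the mutant libraries, and autophagy then had 1 rise, as it had without N2_AL 2.

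Of 18 cytosolic heat shock genes 3 rose and 1 fell (7 and 1 without N2_AL 3). F44E5.4 and F44E5.5, near-identical neighbours of the HSP70 family and uncertain for that, had log2 fold changes of 1.998 ± 0.28 and 1.99 ± 0.27, and hsp-43 had 2.03 ± 0.44.

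A further 3 lists moved with single N2 libraries. Histone genes had 12 falls and 1 rise in 71, with a median of −0.70 (11, 4 and −0.43 without N2_AL 3). The count of falls was 24 without N2_AL 1, 5 without N2_AL 2, and 2, 1 and 0 without sek1_AL 1, 2 and 3. Their summed level was 1155 to 1466 CPM in the mutant libraries, and 1305, 1888 and 2368 CPM in N2_AL 1, 2 and 3, where ribosomal RNA took 37.84%, 50.95% and 47.44% of counts. Most histone mRNA has no poly(A) tail, and the part of incomplete poly(A) selection in these calls was not tested. The linker histone gene his-24 rose (0.79 ± 0.17), with 166, 118.6 and 161 CPM in sek-1(km4), against 89.6, 79.4 and 88.9 CPM in N2. Cytosolic ribosomal protein genes had 2 falls and 0 rises in 80, with a median of −0.78 that was −0.15 without N2_AL 3, with 13, 48 and 6 falls without N2_AL 1, 2 and 3, and 1 or 0 without a mutant library. The 12 mitochondrially encoded protein genes had 0 calls (2 lower without N2_AL 1), with a median of −1.30, or 0.05 without N2_AL 3. In that library they made up 1.18% of counts outside ribosomal RNA against 0.28% to 0.62% in the mutant libraries and 0.31% and 0.48% in the other N2 libraries.

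The genotype difference was also measured in the libraries under DR, which share no sample with the comparison on AL. There 3631 genes (24.9%) were higher and 2137 (14.6%) lower in sek-1(km4). Of the genes higher on AL, 1729 were higher on DR, which is 92.96% of that list and 47.62% of the DR list. Of those lower on AL, 504 were lower on DR, 73.04% of that list and 23.58% of the DR list. Opposite calls were made for 1 and 0 genes. The sign was the same on both diets for 2513 of the 2550 genes called on AL. Without N2_AL 3, 5131 genes were higher and 4459 lower on DR. In that fit 3106 of the 3461 genes higher on AL were higher on DR. Of the 1997 lower on AL, 1849 were lower on DR. Both comparisons share 1 estimate of the spread, into which N2_AL 3 enters. A count of calls does not test whether the difference was larger on DR. With each diet fitted on its own libraries, 972 genes were higher and 215 lower on AL, against 4826 and 3934 on DR. Without N2_AL 3 the counts from the AL libraries alone were 3423 and 2153.

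Effectors differed on both diets, with some values further apart. The infection response gene irg-4 had 0.106, 0.192 and 0.129 CPM in sek-1(km4), against 0.800, 0.743 and 1.49 CPM in N2 on AL (−2.75 ± 0.49), with 0.84 on DR, which did not pass. On DR the log2 fold change was −8.04 for C17H12.8 and −5.77 for lys-2, beside −8.95 and −5.73 on AL. For sysm-1 it was −3.13 on DR and −7.12 on AL, for clec-85 −2.80 and −4.45, and for clec-60 1.67 and 4.34. The mean of sysm-1 in N2 was 0.523 CPM on DR and 18.5 CPM on AL. Its mutant means, 0.0599 and 0.122 CPM, were near the limit of detection. The low N2 level on DR therefore limits how large a fall could be measured there. The cuticle genes gave 5.75 for cut-2, 4.23 for dpy-7 and 3.87 for lpr-6 on DR. For col-19 the value on DR was 0.22 and did not pass. Of 14611 genes, 0 passed the edgeR test of the difference between diets (smallest adjusted p = 0.19), with 1302 at an unadjusted p under 0.05, and DESeq2 called 35. Without N2_AL 3, 13 genes passed in edgeR. They were chosen by that fit and included K08D8.4, H39E23.3, K11H12.4 and faah-2, lower on AL by more than on DR, and lst-5, with 1.97 on AL and 0.39 on DR in the fit of all libraries.

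**Figure D5:**
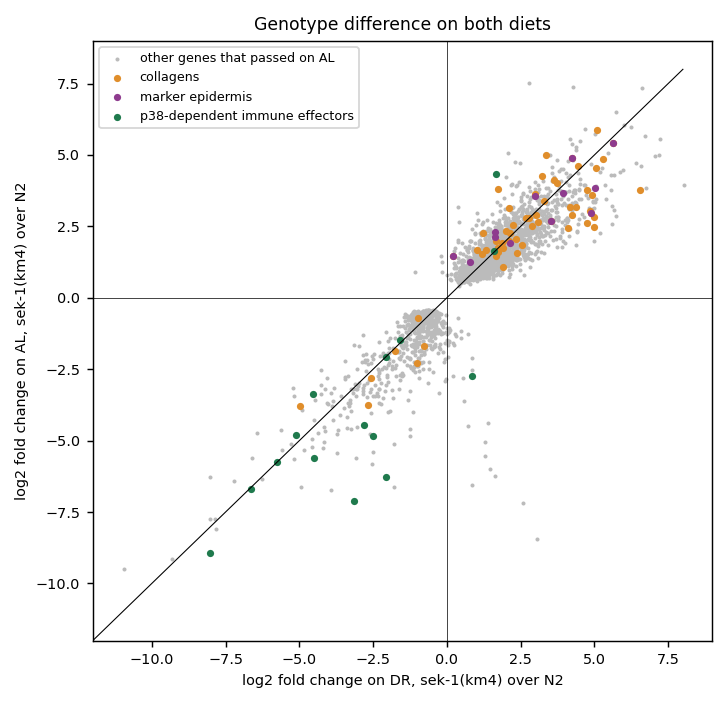
Log2 fold change of sek-1(km4) over N2 on AL (vertical) against that on DR (horizontal) for the 2550 genes that passed on AL, from the fit of all 12 libraries, with the line of equal values. Collagens and epidermis markers lie at upper right and effectors at lower left, with sysm-1 and clec-85 below the line; a few genes with negative values on AL and positive values on DR, irg-4 among them, lie at lower right.

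Called genes lay on all 6 nuclear chromosomes. On the X chromosome 463 of 2087 tested genes were higher, 22.2%, and 76 were lower, 3.64%, with a median log2 fold change of 0.49. On chromosomes I to V the share higher was 8.80% to 13.3% and the share lower 3.68% to 6.35%, with medians between −0.09 and 0.05. Without N2_AL 3, 793 of these 2087 genes of the X chromosome were higher and 92 lower. On chromosomes I to V that fit called 412 of 2352, 558 of 2549, 395 of 2286, 502 of 2353 and 725 of 2852 higher. Lower in the same order were 378, 382, 351, 406 and 378. The gene sek-1 lies on the X chromosome. In the fit of all libraries, 71 of 275 tested genes within 1 Mb of it were higher (25.8%) and 11 lower (4%). In the same comparison 2 of 26 germ line genes were lower, or 18 without N2_AL 3, and their part in the difference between chromosomes was not tested.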

How the data were processed

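The authors deposited raw read counts per gene, 1 column per library. Per the submitters' processing notes the counting tool was featureCounts (Subread). Aligner, build, annotation and strand setting are not stated in these sources, so reads of overlapping, antisense or near-identical genes could be misassigned. All 12 columns were used. Gene names, exon lengths and positions came from the Ensembl 115 annotation (WBcel235), which held 46449 of the 46748 gene identifiers. The 14611 genes kept by filterByExpr (minimum count 10) were fitted with edgeR 4.0.16 in R 4.3.3. The fit used TMM scaling and robust quasi-likelihood dispersions, with the mean of each of the 4 groups as a coefficient. P-values were adjusted over all tested genes by Benjamini-Hochberg. The labels name biological replicates but no separate cultures, so p-values measure the spread between these libraries. The SE was taken as |log2 fold change| / √F. Counting intervals (95%, exact) and limits of detection (3 counts) cover counting error only. Alternatives used DESeq2 1.42.0, limma 3.58.1, RLE scaling, an exon length offset, removal of 23 ribosomal RNA genes, other filters, a replicate block and each library left out. The script was tested on simulated data.

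Genes were named by rule: the cascade, the 12 largest changes each way with a mean of at least 5 CPM, called also without N2_AL 3 and with no overlap, genes averaging 5 CPM or more in 1 group and at most 3 counts in each library of the other, and up to 4 members of smallest adjusted p in each of 59 lists. The members and lists were chosen with earlier results of these data known. The lists of lipocalin-related, precuticle, embryonic regulator and mitochondrially encoded genes were added last.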

Additional observations from a re-analysis of the deposited data

How the results depend on the processing

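Higher and lower genes on AL, 1860 and 690 in the report, numbered 969 and 242 with a minimum mean of 5 CPM, 972 and 215 with the 6 AL libraries alone, 1007 and 244 at an adjusted p under 0.01, and 4113 and 2850 in limma with library weights. With N2_AL 3 left out they numbered 3423 and 2153 with the AL libraries alone and, in settings chosen after seeing the data, 3241 and 2945 with RLE and 3033 and 4562 with a length offset. The lower count also moved to 1830 in DESeq2, 2562 with the length offset and 387 without a filter. Leaving out 1 library gave 1256 to 3461 higher and 275 to 1997 lower genes. The lower count was 1058 without N2_AL 1, 1997 without N2_AL 3, 442 without N2_DR 2, 314, 290 and 275 without sek1_AL 1, 2 and 3, and 412 without sek1_DR 2.

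On DR, higher genes (3631) numbered 6195 in limma, 1574 at 5 CPM, 2099 at the stricter p and 2463 to 5131 without 1 library. Lower genes (2137) numbered 4700, 1020, 1064 and 1289 to 4459 in the same settings, 4578 with the length offset, 4715 and 5624 with RLE or the length offset and N2_AL 3 left out, 1380 without a filter and 3934 with the DR libraries alone. For the difference between diets (0 genes), DESeq2 called 35, limma 1374, RLE and the length offset without N2_AL 3 called 12 and 48, no filter 6, the replicate block 1, and leaving out 1 library 0 to 13. The cause of these moves was not tested, beyond the smaller number of genes or libraries where a setting has fewer.

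Same-numbered mutant and N2 libraries on AL deviated from their group means with correlations of 0.388, 0.036 and 0.387. The value was −0.392 for sek1_AL 1 with N2_AL 3, and −0.387 for sek1_AL 3 with N2_AL 1. For sek1_AL 2 no partner stood out, at 0.054 with N2_AL 1 and 0.036 with N2_AL 2. The main fit took no pairs, and the source of the likeness between same-numbered libraries was not tested. With the number as a replicate block, 2181 genes were higher and 865 lower on AL, and 4104 and 2547 on DR.

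Of the 159 genes named above that passed on AL, 117 kept their direction and their call in every alternative that tested them. With any 1 library left out 128 did so, and 2 turned in some alternative. A gene that a setting filtered out or gave no adjusted p was not counted in that setting. Those were dbl-1, at 0.61 without N2_AL 3, 0.61 with the AL libraries alone, 0.54 with RLE, 0.45 with the length offset and 0.41 in limma, and grd-6, at 1.76, 1.76, 1.69, 1.61 and 1.65 in the same settings, the first 4 of each without N2_AL 3. Among genes that did not pass, sek-1 turned to −0.32, −0.32, −0.38, −0.47 and −0.32 in those 5 settings and −0.054 with the length offset on all libraries, and atf-7 to −0.20, −0.20, −0.26, −0.29 and −0.15, with −0.011 in DESeq2, −0.011 with RLE and −0.22 with the length offset on all libraries. The value for nsy-1 turned to −0.055 with RLE and −0.10 with the length offset without N2_AL 3, and that for clec-71 to −0.31 in limma. With any 1 library left out, dbl-1 ranged between −4.90 and 0.61, grd-6 between −7.73 and 1.76, sek-1 between −0.32 and 0.50, and atf-7 between −0.20 and 0.22. Calls lost with 1 or more single AL libraries left out, beyond those seen in the counts of the report, were those of pmk-1 (0.64 without sek1_AL 3), elt-1 (1.23 and 1.25 without sek1_AL 3 and 2), sip-1 (−1.0 and −1.12 without the same), asp-6 (−1.18 to −1.1 without any 1 mutant library), fipr-2 (1.96 and 2.10 without N2_AL 1 and sek1_AL 3), dpy-9 (1.31 and 1.29 without N2_AL 1 and 2), col-19 (1.35 to 1.48) and rol-6 (2.15 to 2.95), both without N2_AL 1, N2_AL 2, sek1_AL 1 or sek1_AL 2, clec-67 (−4.41 to −2.77) without any AL library but N2_AL 3, and act-5 (0.96 to 1.28) without any but N2_AL 1. Depth limits the low genes, which the counting intervals describe.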
